A study of Mus musculus with 6 samples.

Results

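The adipocyte identity genes, 10 genes that mark mature fat cells or are highly expressed in them (Adipoq, Lep, Plin1, Fabp4, Cidec, Pparg, Lpl, Retn, Cfd and Cidea), were followed by RNAseq in mammary tumors of NeuT/ATTAC mice. They were chosen by symbol through the mouse GRCm38 annotation, all 10 were present, and they are 10 of the 54532 Ensembl gene IDs with a value in each tumor. Tumors of 3 IgG-treated and 3 anti-PD-1-treated mice were measured. Both groups carry MMTV-NeuT, a transgene for Erbb2 under a mammary tumor virus promoter, and the FAT-ATTAC transgene, in which the Fabp4 (aP2) promoter drives an inducible caspase, so that the dimerizer AP20187 kills adipocytes; the line was crossed into the FVB strain. Every mouse received AP20187 (0.4 mg/kg, from 6 weeks of age, biweekly in the sample labels and triweekly in the paper's methods) and, from 8 weeks of age, 100 μg of a control IgG or of the anti-PD-1 antibody 2 times per week. Tumors of mice without the transgene or without AP20187 were not part of the RNAseq, so that levels in these tumors cannot be set against those of tumors with intact fat. One legend of the paper speaks of pooled RNA for each group, whereas each set of values read here belongs to 1 tumor; p-values therefore measure the spread between these tumors, which carry no further label on litter or cage.

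A mature white adipocyte stores triglyceride in a single large droplet, takes up fatty acids released from circulating lipoproteins, and secretes hormones and complement factors. The receptor Pparg, with partners of the Rxr family and with factors of the C/EBP family, switches on most of the genes that do this work. Mammary tumors grow inside a fat pad, and the mammary epithelium, capillaries and macrophages themselves use several of the same lipid genes, so bulk tumor RNA mixes these sources. In such bulk samples, fewer cells of a type and less RNA per cell cannot be told apart.

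The values are FPKM, fragments counted on a gene relative to its exon length and to the size of the library. The whole reads behind them could be recovered for 97.0% to 97.3% of the values above 0, with totals of 21075763 to 23853239 reads per tumor, and scaling factors between tumors lay between 1.00 and 1.01. All 54532 IDs were read, and the 15069 with a mean FPKM of at least 0.5 were tested. Intervals given for 1 tumor are exact 95% Poisson intervals of the reads and cover counting error only. The tumors correlated at 0.892 to 0.958 across genes, which are not independent, and no pair of profiles was identical. Skeletal muscle markers varied widely, with a summed FPKM of 2.07 to 178 in IgG and 1.68 to 193 in anti-PD-1 tumors, high in IgG replicate 2 and in anti-PD-1 replicates 1 and 2.

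Since the receptor Pparg works with C/EBP factors and one of these, Cebpa, is among the program genes described further on, the 250 bases upstream of the RefSeq transcript starts (GRCm38.p6) were read for the C/EBP core TTGCNNAA on both strands. Windows of 7 of the 10 genes were read (10 windows), and 4 of the 10 windows held the core. No window of Fabp4, Lpl or Cidea was read, so this count does not cover these genes. Over all 32851 windows of this length in the table, 3142 (9.56%) held it. The windows of Lep (chr6:29059971-29060220, plus strand, core 55 bases before the start) and of the downstream Pparg start (chr6:115421816-115422065, plus strand, cores 215 and 16 bases before the start) are shown in transcript direction, 5′ to 3′, because they hold the palindromic form of the core and a pair of cores; capitals mark the core, and TTTTGCAA is a match on the opposite strand.
Lep: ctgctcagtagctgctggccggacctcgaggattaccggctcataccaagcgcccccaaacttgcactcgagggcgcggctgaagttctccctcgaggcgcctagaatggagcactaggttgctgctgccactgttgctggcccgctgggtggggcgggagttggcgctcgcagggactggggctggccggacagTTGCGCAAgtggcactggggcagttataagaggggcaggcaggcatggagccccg
Pparg: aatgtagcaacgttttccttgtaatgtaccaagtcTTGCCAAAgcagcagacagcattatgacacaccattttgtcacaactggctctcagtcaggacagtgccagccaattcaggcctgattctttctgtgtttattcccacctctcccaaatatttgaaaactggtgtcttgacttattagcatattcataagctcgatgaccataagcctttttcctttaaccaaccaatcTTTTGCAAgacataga
In the Plin1 window (chr7:79732777-79733026, minus strand) the cores TTGCCTAA and TTGCCCAA stood 187 and 58 bases before the start, and in one Cidec window (chr6:113434765-113435014, minus strand) TTGCTCAA stood 198 bases before it. The windows of Adipoq, Retn and Cfd, the other Cidec window and the upstream Pparg windows held none of these letters. A match is a description of the letters, not a bound site.

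Values of single tumors are given from here on in the order of replicates 1, 2 and 3 of each group. The 10 genes together held 14.5, 9.98 and 14.5 FPKM in IgG and 28.5, 7.76 and 13.6 FPKM in anti-PD-1 tumors. That is 13.0 ± 2.59 FPKM (SD, n = 3) in IgG and 16.6 ± 10.7 (SD, n = 3) in anti-PD-1 tumors, a difference of 3.63 FPKM, smaller than the spread of the latter. With anti-PD-1 replicate 1 left out it became -2.30, so its sign rested on that tumor. The 6 genes made chiefly by fat cells (Adipoq, Lep, Plin1, Cidec, Retn and Cfd) together gave 1.95, 2.52 and 6.88 FPKM in IgG and 3.43, 2.43 and 1.18 FPKM in anti-PD-1 tumors, from no more than 213 reads in any tumor. Most of the total was instead carried by Fabp4, Lpl, Pparg and Cidea, which other cells of a mammary tumor also express, with 12.5, 7.46 and 7.60 FPKM in IgG and 25.0, 5.34 and 12.4 FPKM in anti-PD-1 tumors. The high and low tumors were not the same in both groups of genes. The sum of the former was highest in IgG replicate 3, where Cfd alone had 4.45 FPKM. The sum of the latter was highest in anti-PD-1 replicate 1, where Cidea alone had 15.9 FPKM.

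**Figure D1:**
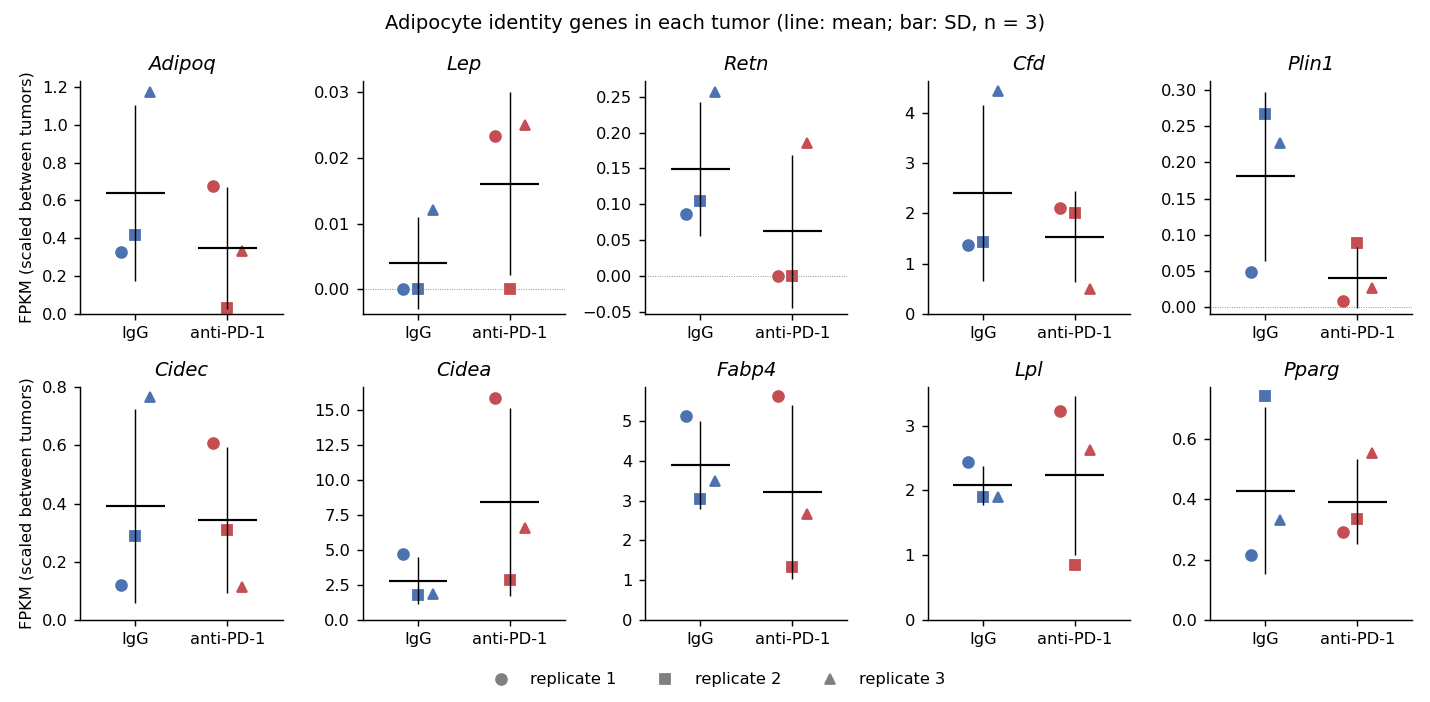
Scaled FPKM (linear axis, own scale in each panel) of the 10 adipocyte identity genes in each tumor; symbols are replicates, horizontal lines are means and vertical bars are SD (n = 3). IgG and anti-PD-1 tumors overlap in all 10 panels; Adipoq runs from 0.0297 to 1.18 FPKM and Cidea from 1.78 to 15.9 FPKM.

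Among the secreted products, Adipoq (adiponectin, the most abundant hormone of fat cells; ENSMUSG00000022878, chromosome 16 from 23146536 to 23158028) had 0.326, 0.419 and 1.18 FPKM in IgG and 0.677, 0.0297 and 0.333 FPKM in anti-PD-1 tumors. IgG replicate 3, with 40 reads, was highest, and anti-PD-1 replicate 2, with 1 read, was lowest. The interval of the former (0.848 to 1.62 FPKM) lay wholly above that of the latter (0.0008 to 0.166 FPKM). The means were 0.640 ± 0.466 FPKM in IgG and 0.347 ± 0.324 FPKM in anti-PD-1 tumors (SD, n = 3; two-sided exact permutation test, p = 0.5). The groups overlapped, and the difference between the means was smaller than the SD of the IgG tumors.

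Lep (leptin, the satiety hormone that reports fat stores; ENSMUSG00000059201, chromosome 6 from 29060220 to 29073877) was at 0 in 3 of the 6 tumors. It had 0, 0 and 1 read in IgG and 2, 0 and 2 reads in anti-PD-1 tumors. In the 3 tumors at 0, a floor of 3 reads would be 0.0406, 0.0373 and 0.0369 FPKM. A difference between the groups was not detectable at this depth, and no fold is given.

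Retn (resistin, in mice a product of fat cells; ENSMUSG00000012705, chromosome 8 from 3655770 to 3660110) was found with 3, 4 and 10 reads in IgG and 0, 0 and 7 reads in anti-PD-1 tumors, or 0.0856, 0.105 and 0.257 FPKM against 0, 0 and 0.186 FPKM. Both tumors at 0 were anti-PD-1 tumors, where 3 reads would be 0.0742 and 0.0783 FPKM, a level close to that of the lowest IgG tumor. The groups overlapped (exact permutation test, p = 0.3).

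Cfd (adipsin, or complement factor D, a serine protease of the alternative complement pathway; ENSMUSG00000061780, chromosome 10 from 79890853 to 79892655) was the most abundant of the genes made chiefly by fat cells. It reached 1.37, 1.44 and 4.45 FPKM in IgG and 2.11, 2.0 and 0.499 FPKM in anti-PD-1 tumors, from 11 to 101 reads. The highest tumor was again IgG replicate 3, and the lowest was anti-PD-1 replicate 3. On the log2(FPKM + 1) scale Cfd differed by -0.39 between anti-PD-1 and IgG (standard error 0.42, 95% interval -1.38 to 0.60, limma adjusted p = 0.732), and by 0.01 once IgG replicate 3 was left out.

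Of the lipid droplet proteins, Plin1 (perilipin 1, the coat of the adipocyte droplet that holds back lipases; ENSMUSG00000030546, chromosome 7 from 79720218 to 79732903) had 0.0485, 0.267 and 0.227 FPKM in IgG and 0.0084, 0.0881 and 0.0270 FPKM in anti-PD-1 tumors. These are 5, 30 and 26 reads against 1, 10 and 3. IgG replicates 2 and 3 stood above all anti-PD-1 tumors, while IgG replicate 1 lay below anti-PD-1 replicate 2, so the groups overlapped (exact permutation test, p = 0.2). With limma voom on the reads recovered, Plin1 differed by -2.21 on the log2 scale (standard error 1.09, adjusted p = 0.501), which did not pass.

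Cidec (the droplet fusion protein that helps to build a single large droplet; ENSMUSG00000030278, chromosome 6 from 113424634 to 113435760) gave 0.121, 0.290 and 0.765 FPKM in IgG and 0.609, 0.309 and 0.113 FPKM in anti-PD-1 tumors. Each group spanned nearly the same range, from 5 to 35 reads in the one and from 5 to 29 in the other (exact permutation test, p = 0.9). The order of the tumors was the same for Cidec as for Cfd in 6 of 6 ranks, with IgG replicate 3 first and anti-PD-1 replicate 3 last; both genes rest on few reads.

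Cidea (a droplet protein of the same family, known from brown fat and from the milk-secreting mammary epithelium; ENSMUSG00000024526, chromosome 18 from 67343604 to 67367785) had, on the log2(FPKM + 1) scale, the widest difference between the groups among the 10 genes. Its mean FPKM over all 6 tumors was the highest of the 10. With the length of the principal transcript in its place, Fabp4 was the highest (mean of 17.8 FPKM against 5.85 for Cidea). With the lengths behind the FPKM, Cidea was above Fabp4 in every anti-PD-1 tumor and below it in every IgG tumor. It had 4.72, 1.78 and 1.88 FPKM in IgG and 15.9, 2.82 and 6.54 FPKM in anti-PD-1 tumors. Anti-PD-1 replicates 1 and 3 were above every IgG tumor, and anti-PD-1 replicate 2 was below IgG replicate 1. The means were 2.79 ± 1.67 FPKM in IgG and 8.42 ± 6.74 FPKM in anti-PD-1 tumors (SD, n = 3; exact permutation test, p = 0.2). On the log2(FPKM + 1) scale Cidea was higher by 1.14 (standard error 0.55, 95% interval -0.15 to 2.42, limma adjusted p = 0.440), which did not pass the threshold. The difference was 0.58 without anti-PD-1 replicate 1 and 1.66 without anti-PD-1 replicate 2. With the latter tumor left out, or IgG replicate 1 (1.48), the unadjusted p of Cidea fell under 0.05, and the adjusted p over all alternatives ran from 0.261 to 0.783.

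Among the genes of fatty acid handling, Fabp4 (the cytoplasmic fatty acid carrier of adipocytes, also expressed by capillary endothelium and macrophages; ENSMUSG00000062515, chromosome 3 from 10204088 to 10208576) had 5.14, 3.04 and 3.49 FPKM in IgG and 5.63, 1.34 and 2.67 FPKM in anti-PD-1 tumors, from 147 to 648 reads. The highest and the lowest tumor were both anti-PD-1 tumors, replicates 1 and 2. Fabp4 differed by -0.32 on the log2(FPKM + 1) scale (standard error 0.38, 95% interval -1.22 to 0.57, limma adjusted p = 0.756), and by 0.03 without anti-PD-1 replicate 2. The promoter that drives the FAT-ATTAC caspase is that of Fabp4; the caspase itself has no row of its own among the values.

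Lpl (lipoprotein lipase, which frees fatty acids from circulating lipoproteins and is also made by macrophages and the mammary epithelium; ENSMUSG00000015568, chromosome 8 from 68880491 to 68907448) had the most reads of the 10 genes, 3273 over the 6 tumors. Levels were 2.43, 1.90 and 1.89 FPKM in IgG and 3.22, 0.848 and 2.62 FPKM in anti-PD-1 tumors. The IgG tumors were close together (2.07 ± 0.308, SD, n = 3), while the anti-PD-1 tumors (2.23 ± 1.23, SD, n = 3) lay on both sides of them. The difference on the log2(FPKM + 1) scale was -0.01 (standard error 0.32, 95% interval -0.76 to 0.74, limma adjusted p = 0.993). Without anti-PD-1 replicate 2 it was 0.35.

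Pparg (the nuclear receptor at the head of the adipocyte program; ENSMUSG00000000440, chromosome 6 from 115360951 to 115490399) stayed low, with 0.214, 0.742 and 0.330 FPKM in IgG and 0.290, 0.333 and 0.553 FPKM in anti-PD-1 tumors, from 14 to 53 reads. IgG replicates 1 and 2 were the lowest and the highest tumor, so that the anti-PD-1 tumors all fell within the IgG range (exact permutation test, p = 0.9). The antisense gene Gm44079 overlaps Pparg without sharing exon bases.

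By mean FPKM over the 6 tumors, which is a level per length, the order was Cidea (5.61), Fabp4 (3.55), Lpl (2.15), Cfd (1.98), Adipoq (0.494), Pparg (0.410), Cidec (0.368), Plin1 (0.111), Retn (0.105) and Lep (0.0100). Of the 9 pairs of neighbours, 3 kept their order in 6 of 6 tumors, namely Fabp4 above Lpl, Cfd above Adipoq and Cidec above Plin1 (two-sided exact sign-flip permutation test within tumors, p = 0.0312, the smallest that 6 tumors allow, adjusted p = 0.0938 over 9 pairs). The other 6 pairs changed places between tumors, with exact permutation p-values from 0.125 to 0.938. Of these, Cidea lay above Fabp4 in every anti-PD-1 tumor and below it in every IgG tumor. Within a tumor, between 52.9% and 85.0% of 21995 protein-coding genes had a lower FPKM than Cidea, and between 51.5% and 67.8% had a lower FPKM than Fabp4. For Adipoq the range was 33.7% to 49.7%, for Plin1 29.4% to 40.5% and for Lep 0% to 31.4%, all below the middle of the coding genes, while for Cfd it was 44.4% to 63.8% and crossed the middle. The order rests on the length behind each FPKM: with the length of the principal transcript in place of the merged exons (896 against 4489 bases for Fabp4, 4115 against 10478 bases for Lpl), the mean of Fabp4 became 17.8 FPKM and the highest of the 10, and that of Lpl 5.48 FPKM. With that length Plin1 (0.444 FPKM) lay above Cidec (0.315 FPKM) in IgG replicate 2, so this pair no longer kept its order in 6 of 6 tumors.

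**Figure D2:**
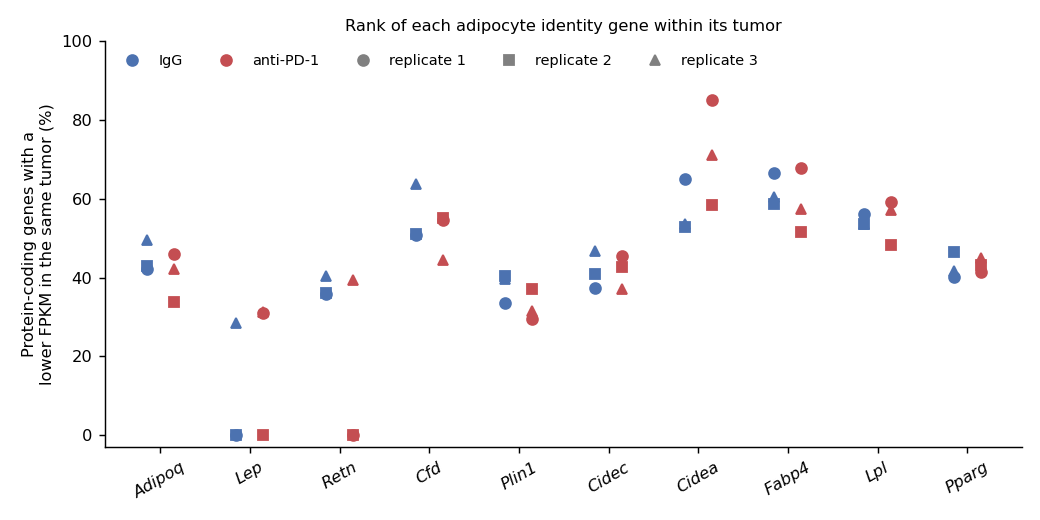
Percent of protein-coding genes with a lower FPKM in the same tumor (linear axis, 0 to 100) for each adipocyte identity gene; colors are groups and symbols are replicates. Cidea reaches 85.0% in anti-PD-1 replicate 1, while Lep is at 0% in 3 tumors and Retn in 2.

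The series was made to follow the response of these tumors to PD-1 blockade, and the comparison given here sets these 10 genes, some of them also expressed by other cells of the tumor, in the anti-PD-1 tumors against the IgG tumors. Of the 10 genes, 4 (Cidea, Fabp4, Lpl and Cfd) reached the mean FPKM of 0.5 needed for the test, and 6 did not, with Adipoq just under it. None of the 4 had a limma adjusted p under 0.05, where 0% of the 15069 tested genes did in either direction. None of the 4 had an unadjusted p under 0.05 either, where 12.3% of tested genes did, and none passed with at least 1.5-fold, where 3.9% passed as higher and 4.53% as lower. Cidea was higher and Fabp4, Cfd and Lpl were lower by mean log2(FPKM + 1), where Lpl turned to 0.011 with quantile normalization and is higher on the linear scale. Their median log2 fold change was -0.17 beside 0.01 over all tested genes. That median had no stable sign, at -0.41 without anti-PD-1 replicate 1 and 0.19 without anti-PD-1 replicate 2. Under a filter at a mean FPKM of 2, which Cfd did not reach, it was -0.0092. In all 10 genes the IgG and anti-PD-1 tumors overlapped, whereas of the 28732 genes above 0 in any tumor 6.14% had every anti-PD-1 tumor above every IgG tumor and 6.43% the opposite. In the fit without a filter on low FPKM, 8 of the 10 genes were lower and 2 (Cidea and Lep) higher by mean, with a median of -0.08 beside -0.0005 over all genes, and none had an adjusted p under 0.05.

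**Figure D3:**
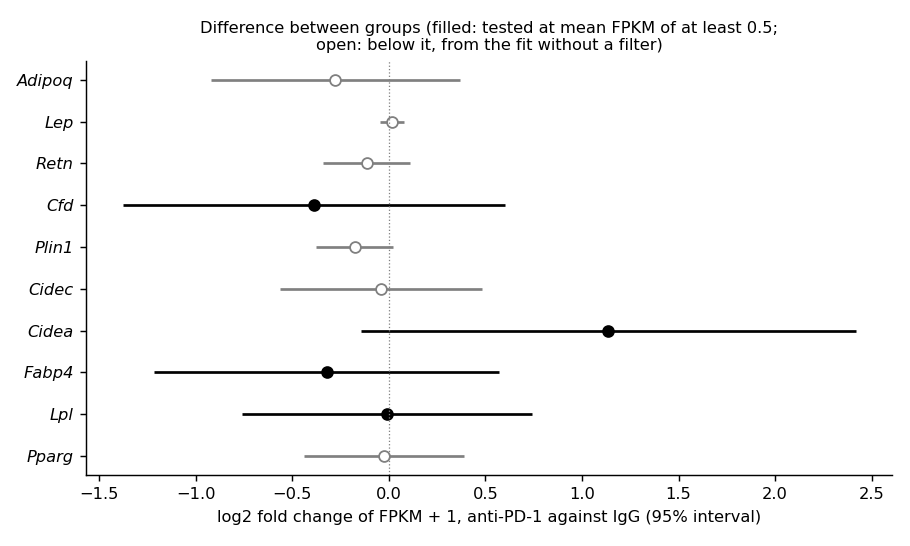
Difference between anti-PD-1 and IgG tumors in log2(FPKM + 1) with its 95% interval from limma; filled points were tested at a mean FPKM of at least 0.5, and open points come from the fit without that filter. All 10 intervals include 0; the one of Cidea runs from -0.15 to 2.42. The narrow intervals of Lep, Retn and Plin1 come from adding 1 to values far below 1.

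An interval that includes 0 does not show that the groups were alike. For Lpl, the interval of the difference still allowed a change of 0.76 down or 0.74 up on the log2 scale, and Adipoq, Plin1 and Retn rested on at most 40, 30 and 10 reads in any tumor. With limma voom on recovered reads, which counts 9 of the 10 genes (all but Lep), none had an unadjusted p under 0.05, where 10.7% of the 21389 genes in that fit did. The log2 fold changes of Adipoq and Retn there were -1.35 (adjusted p = 0.676) and -2.24 (adjusted p = 0.569).

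The highest and the lowest tumor differed from gene to gene. IgG replicate 3 was highest for 4 genes (Adipoq, Cidec, Retn and Cfd), anti-PD-1 replicate 1 for 3 (Fabp4, Lpl and Cidea), IgG replicate 2 for 2 (Plin1 and Pparg) and anti-PD-1 replicate 3 for 1 (Lep). Anti-PD-1 replicate 2 was lowest, or among tumors tied at 0, for 5 genes (Adipoq, Lep, Fabp4, Lpl and Retn). The high and low tumors of markers of other cells matched these values only in part. The 10 endothelial markers summed to 29.4, 20.96 and 25.5 FPKM in IgG and 25.9, 13.8 and 19.7 FPKM in anti-PD-1 tumors. Their sum was lowest in the tumor with the least Fabp4 and Lpl, but highest in IgG replicate 1, not in the tumor with the most. The 12 stromal and adipose progenitor genes summed to 72.2, 84.9 and 59.6 FPKM in IgG and 116, 45.4 and 67.5 FPKM in anti-PD-1 tumors, highest in the tumor with the most Fabp4, Lpl and Cidea and lowest in the one with the least Fabp4 and Lpl. The 10 macrophage markers summed to 692, 927 and 425 FPKM in IgG and 941, 625 and 921 FPKM in anti-PD-1 tumors. That sum was highest in anti-PD-1 replicate 1 and lowest in IgG replicate 3. Cdh5 and Pecam1, which define endothelium, were above 0 in every tumor. The part of these cells in the levels of Fabp4, Lpl and Cidea was not tested.

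Of the macrophage markers, 10 of 10 were higher by mean log2(FPKM + 1) in anti-PD-1 tumors (median 0.32, from 0.10 to 0.55 with 1 tumor left out). Adgre1 was at 0.01, and Cd14 was lower on the linear scale, with means of 177 FPKM in IgG and 169 FPKM in anti-PD-1 tumors. Cd68 (0.76, limma adjusted p = 0.344) was past 1.5-fold at an unadjusted p under 0.05, and the summed FPKM of the 10 markers ran from 425 to 927 in IgG and from 625 to 941 in anti-PD-1 tumors. Of the 9 genes of milk-secreting epithelium, 8 were lower by mean log2(FPKM + 1) with a median of -0.59, which went to 0.0041 without IgG replicate 2 and to -1.27 without IgG replicate 3. Btn1a1, a milk fat globule protein, passed that threshold (-1.96, limma adjusted p = 0.370), but not in 3 of 6 fits with 1 tumor left out (-1.20 without IgG replicate 2, -1.49 without anti-PD-1 replicate 2, and the fit that left out anti-PD-1 replicate 3). The summed FPKM of these genes ran from 3038 to 7842 in IgG and from 1958 to 4006 in anti-PD-1 tumors. IgG replicate 2, which had the most of these genes by FPKM, had the least Cidea, and the part of milk-secreting cells in the Cidea level was not tested. Of 6 tumor epithelium markers, 4 were higher (median 0.34, and 0.12 without anti-PD-1 replicate 3), with Epcam (0.43) and Erbb2 (0.34) not overlapping between the groups, where 9.3% of the tested genes did not overlap in this direction and 8.75% in the other. Nerve markers (5 genes, median -0.09, from -0.15 to 0.03 with 1 tumor left out) and the 9 tested endothelial markers (0 higher and 9 lower, median -0.21, from -0.35 without anti-PD-1 replicate 1 to -0.10 without anti-PD-1 replicate 2) held no gene past the threshold, nor did the 8 muscle markers (8 higher by mean log2, median 0.76), whose median ran from -0.02 without anti-PD-1 replicate 2 to 1.89 without anti-PD-1 replicate 3. Of the 12 progenitor genes, 10 were tested, 3 higher and 7 lower by mean log2 (median -0.12, which ran from -0.31 without anti-PD-1 replicate 1 to 0.19 without anti-PD-1 replicate 2). Dpp4 (-0.76, limma adjusted p = 0.383) was past the threshold, but not in 4 of 6 fits with 1 tumor left out (IgG replicates 2 and 3, anti-PD-1 replicates 2 and 3), with -0.50 without IgG replicate 3.

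The wider adipocyte program was described with lists of 58 genes, of which 38 were tested. At an unadjusted p under 0.05 with at least 1.5-fold, 1 was higher and 4 were lower, where 3.9% and 4.53% of all tested genes were, and none had an adjusted p under 0.05. Among 14 adipogenic and lipogenic transcription factors, 10 were tested, 4 higher and 6 lower by mean, with a median log2 fold change of -0.04 that ran from -0.21 without anti-PD-1 replicate 1 to 0.13 without anti-PD-1 replicate 3. Rxrg, a retinoid receptor that can pair with Pparg, had 0.471, 0.0360 and 0.106 FPKM in IgG and 2.51, 5.51 and 12.6 FPKM in anti-PD-1 tumors. The groups did not overlap, as in 9.3% of all tested genes in this direction. The log2 fold change was 2.51 (standard error 0.47, limma unadjusted p = 0.0009, adjusted p = 0.344), from 2.01 to 2.99 with 1 tumor left out. On recovered reads, with limma voom, it was 5.38 (adjusted p = 0.327), since adding 1 to the FPKM shrinks a change from levels below 1. Rxrg passed the filter only through the anti-PD-1 tumors (mean 0.204 FPKM in IgG and 6.89 FPKM in anti-PD-1), so that its place among the tested genes is not independent of the difference.

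In the same list Stat5a, which carries prolactin and growth hormone signals in breast and fat, was lower, with 10.1, 18.5 and 18.9 FPKM in IgG and 9.08, 5.11 and 7.92 FPKM in anti-PD-1 tumors (log2 fold change -0.99, standard error 0.29, limma adjusted p = 0.346). Cebpa, the C/EBP factor that keeps the mature adipocyte state, was lower as well, with 18.1, 18.5 and 15.4 FPKM in IgG and 14.2, 7.34 and 10.9 FPKM in anti-PD-1 tumors (log2 fold change -0.67, standard error 0.24, limma adjusted p = 0.366). For Stat5a and Cebpa alike, every anti-PD-1 tumor lay below every IgG tumor, as in 8.75% of all tested genes. Cebpa lost its place past the unadjusted threshold in 3 of 6 fits with 1 tumor left out (-0.44 when anti-PD-1 replicate 2 was dropped, -0.64 for IgG replicate 1 and -0.63 for IgG replicate 2), while Stat5a kept it in all 6. Rxra (-0.23) also did not overlap, nor did Ppargc1b and Zfp423, which were below the filter and lower in anti-PD-1 tumors. Without the filter, 6.43% of genes were lower without overlap. Cebpb (-0.05), Klf15 (-0.03) and Nr1h3 (0.13) overlapped.

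Of 19 genes of droplets, lipolysis and triglyceride synthesis, 15 were tested, 7 higher and 8 lower by mean, with a median of -0.15 that ran from -0.27 without anti-PD-1 replicate 3 to -0.03 without anti-PD-1 replicate 2. G0s2, the inhibitor of the lipase Pnpla2, was the lowest of them, with 82.5, 156 and 118 FPKM in IgG and 51.7, 17.9 and 51.5 FPKM in anti-PD-1 tumors (log2 fold change -1.63, standard error 0.44, limma adjusted p = 0.344). Plin2, the droplet coat protein of most cells and of milk fat globules, had 107, 173 and 80.5 FPKM in IgG and 51.9, 63.9 and 59.7 FPKM in anti-PD-1 tumors (-0.96, standard error 0.28, limma adjusted p = 0.346). Neither gene overlapped between the groups, as in 8.75% of all tested genes in this direction. In every tumor the FPKM of Plin2 was above that of Plin1, which never passed 0.267. Plin2 lies on chromosome 4, where 83.6% of 926 tested genes were lower after anti-PD-1 with a median of -0.40; the part of this in the Plin2 value was not tested. The lipase Pnpla2 itself was lower without overlap (-0.44), and Dgat1, which makes the last step of triglyceride synthesis, was higher without overlap (0.49), both under 1.5-fold. Of all tested genes, 9.3% were higher without overlap. The fatty acid transporter Cd36 overlapped, at -0.43 and from -0.84 without anti-PD-1 replicate 1 to -0.03 without anti-PD-1 replicate 2, and so did hormone-sensitive lipase, Lipe, at 0.01 and from -0.09 to 0.16 with 1 tumor left out.

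Of 14 other genes enriched in white adipocytes, 9 were tested, 1 higher and 8 lower by mean (median -0.24), and none passed the threshold. Their median ran from -0.37 without anti-PD-1 replicate 1 to -0.10 without IgG replicate 2, and was -0.51 under a filter at a mean FPKM of 2 and -0.71 with voom on recovered reads. The widest ranges were those of Car3 (carbonic anhydrase 3), with 0.321 to 11.2 FPKM over the 6 tumors, Adig (adipogenin), with 1.45 to 10.8 FPKM, and Thrsp, a lipogenic factor shared with the mammary gland, with 5.55 to 29.4 FPKM. Car3, which muscle also expresses, had 1.05, 11.2 and 3.13 FPKM in IgG and 3.65, 2.29 and 0.321 FPKM in anti-PD-1 tumors, where the muscle markers summed to 2.07, 178 and 7.43 FPKM and to 95.5, 193 and 1.68 FPKM, and the part of muscle in its values was not tested. Of the 9 tested genes, the natriuretic peptide clearance receptor Npr3 (-0.46) was the 1 whose groups did not overlap, beside 8.75% of all tested genes in this direction. Acvr1c had 0 reads in all 6 tumors, and the fat cell genes Slc7a10, Adrb3 and Aqp7 had at most 2, 4 and 6 reads in any tumor. Of 11 thermogenic genes, 4 were tested (2 higher and 2 lower, median -0.09) and none passed. That median had no stable sign, at -0.19 without anti-PD-1 replicate 2, 0.0087 without IgG replicate 3 and 0.19 under a filter at a mean FPKM of 2. Ucp1, the uncoupling protein of brown and beige fat, had at most 1 read and Elovl3 had 0 reads in all tumors. The 4 tested genes, Ppargc1a (2.51 to 4.77 FPKM), Cox7a1 (5.83 to 14.8 FPKM), Slc27a1 (7.06 to 13.4 FPKM) and Cox8b (0 to 2.41 FPKM), were found in most or all tumors. Cox8b, also a muscle gene, had 0, 2.41 and 1.35 FPKM in IgG and 0.650, 1.25 and 0 FPKM in anti-PD-1 tumors. The part of brown or beige fat in the Cidea level was not tested.

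**Figure D4:**
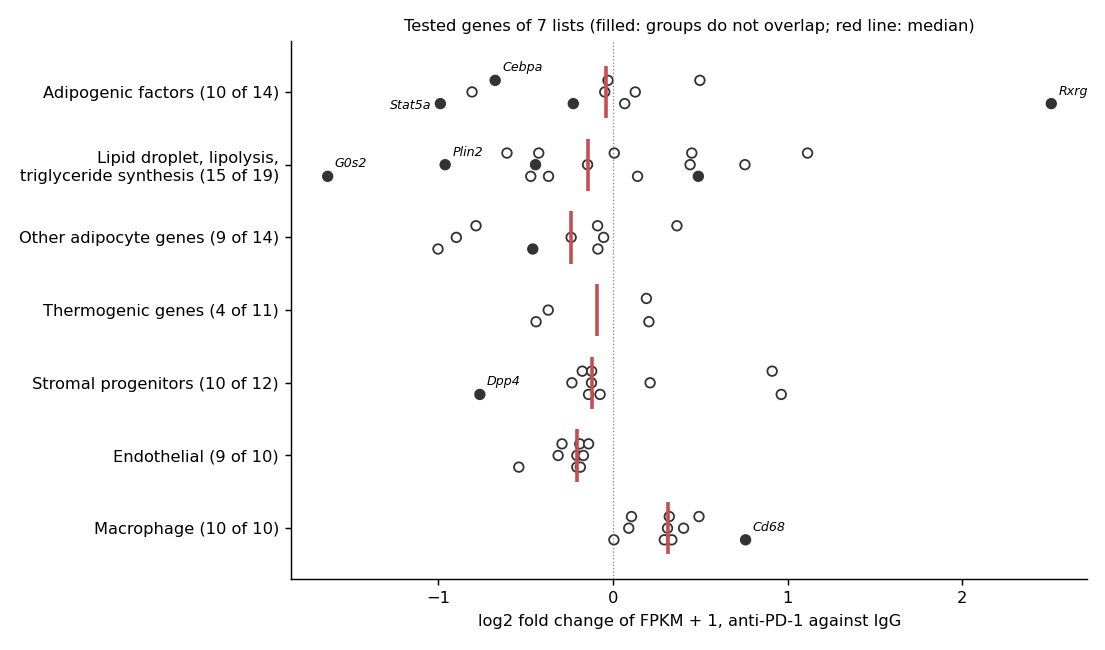
Log2 fold change (anti-PD-1 against IgG, log2(FPKM + 1) scale) of the tested genes in 7 lists, 1 point per gene, with tested and listed numbers beside each name; filled points have groups that do not overlap, red lines are list medians, and names are printed for genes past 1.5-fold at an unadjusted p under 0.05. Points lie on both sides of 0 in the adipocyte lists, from -1.63 for G0s2 to 2.51 for Rxrg; all 10 macrophage points are above 0 and all 9 endothelial points below it.

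Genes with the profile most like the mean of the 4 tested adipocyte identity genes were found by the root mean square difference of centred log2(FPKM + 1) over the 6 tumors. They were Sipa1 (0.0898), 2310022B05Rik (0.0987), Spsb1 (0.105), Insyn1 (0.109), Eml1 (0.120), Cd300lg (0.121), Arhgef40 (0.124), Clba1 (0.124), Gm48623 (0.128) and B4galt2 (0.128), beside a median of 0.482 over the tested genes. All 10 were highest in anti-PD-1 replicate 1, as was that mean profile. Likeness over 6 tumors among all the tested genes is a description, and the 4 genes themselves lay 0.227 (Lpl) to 0.636 (Cidea) from their own mean profile.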

How the data were processed

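RNAseq values of 6 mammary tumors of NeuT/ATTAC mice were grouped by the treatment in the sample labels (3 IgG, 3 anti-PD-1). The authors deposited FPKM values per tumor. By the submitters' processing notes and the paper's methods, reads were checked with FastQC 0.11.9, trimmed with Cutadapt 3.5 and counted with RSEM 1.3.1 on a Bowtie2 2.4.1 index of mm10 (Ensembl release 99), and the authors tested counts with DESeq2 1.36.0 in R 4.1; how the FPKM were made, and whether strand was used, is not given in the sources used here. FPKM depends on the length assigned to a gene, and reads shared by overlapping genes cannot be separated from it.

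Of 54532 Ensembl IDs, 54495 matched GENCODE release M21 (GRCm38). FPKM times merged exon length fell within 0.1 of whole reads in all tumors for 27870 of the 28732 IDs above 0, which gave the reads per value and 21075763 to 23853239 reads per tumor; whether these are RSEM's counts is not known. For Cidea the annotated 1115 bases gave no whole reads, and a search nearby gave 1164 bases.

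After division by median-of-ratios factors, values were taken as log2(FPKM + 1), a scale that understates the change of low genes. Testing was by limma 3.58.1 under R 4.3.3 (intensity trend, two-sided, Benjamini-Hochberg) over 15069 genes whose mean FPKM was 0.5 or more. With 3 tumors a group, the smallest p of an exact permutation test is 0.1. Python 3.11.15, numpy 2.4.6, pandas 2.3.3, scipy 1.17.1 and matplotlib 3.10.9 served for the rest, and the limma script was tested on simulated data. Promoter sequences are from RefSeq (GRCm38.p6).

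The 10 genes, the 11 other lists and the rules were chosen with earlier results of these data known. Named genes were the 10 genes, list genes past an unadjusted p of 0.05 with at least 1.5-fold change, those whose groups do not overlap, defining markers, adipocyte list genes with the widest range, and the 10 genes nearest in profile. A few others (Cebpb, Klf15, Nr1h3, Cd36, Lipe and the genes at or near 0) were named after their values were seen. Alternatives were 0.1 added in place of 1, no filter, a filter at a mean FPKM of 2, no scaling of the deposited FPKM, quantile normalization, no intensity trend, the replicate number as a block, voom on recovered reads, and leaving out each tumor. Voom on genes with at least 10 reads, 0.1 added with no filter, and the principal transcript length were added after seeing the data.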

Additional observations from a re-analysis of the deposited data

How the results depend on the processing

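Under the alternatives, Cidea stayed higher by mean, and the adjusted p of Cidea, Fabp4, Cfd and Lpl stayed over 0.05 in each one run; Cfd, with a mean FPKM of 1.98, was not tested under the filter at a mean FPKM of 2. When single tumors were left out, log2 fold changes ran from 0.58 to 1.66 for Cidea, from -0.72 to 0.03 for Fabp4, from -0.60 to 0.01 for Cfd and from -0.24 to 0.35 for Lpl. Fabp4 turned to 0.035 without anti-PD-1 replicate 2. Cfd turned to 0.0051 without IgG replicate 3. Lpl, at -0.01, turned to 0.07 without IgG replicate 1, to 0.35 without anti-PD-1 replicate 2 and to 0.011 with quantile normalization. The median of the 4 tested genes ran from -0.41 to 0.19 with 1 tumor left out (0.19 without anti-PD-1 replicate 2), and the difference of the summed FPKM from -2.30 (without anti-PD-1 replicate 1) to 8.05 (without anti-PD-1 replicate 2).

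The number of adipocyte identity genes past an unadjusted p of 0.05 with at least 1.5-fold was 0 to 1 with 1 tumor left out, 1 (Cidea) where the tumor was IgG replicate 1 or anti-PD-1 replicate 2. Among the 38 tested genes of the wider program, 1 to 2 were higher and 3 to 6 lower with 1 tumor left out. Over all tested genes, 366 to 1001 were higher and 375 to 1233 lower, beside 587 and 683, with the lowest counts without IgG replicate 2 and the highest without IgG replicate 1. With all tumors, an adjusted p under 0.05 was reached by 0 genes on the log2(FPKM + 1) scale and by 1 with voom on recovered reads. It was reached by 12 genes without IgG replicate 1 and by 1 without IgG replicate 3. The cause was not tested.

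The replicate numbers did not pair the samples: deviations of same-numbered tumors correlated at -0.16, 0.01 and 0.19. With the replicate number as a block, 1 adipocyte identity gene (Cidea) and 2 higher genes of the program passed the unadjusted p with 1.5-fold, and no adipocyte identity gene had an adjusted p under 0.05. Depth limits Lep, Retn and Plin1 most, with at most 2, 10 and 30 reads in any tumor.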
